A study of Mus musculus with 12 samples.

Results

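In the H3K4me2 peak list of control mouse liver, some transcription start sites (TSSs) lay in short stretches that the list left uncovered between neighbouring peaks. These stretches, called TSS gaps here, were taken as gaps of 600 bp or less between consecutive first-listed intervals that held the TSS of at least 1 transcript of a protein-coding gene (GENCODE mouse release 21, mm10). There were 2501 TSS gaps among 12192 gaps of that size (20.5%), cut out of 43891 first-listed intervals, and they held TSSs of 2666 genes. That was 12.2% of the 21938 protein-coding genes annotated on the chromosomes in the list. Where only transcripts annotated as protein-coding themselves were used, 2301 gaps held a TSS. The gaps were chosen on the control first-listed intervals, so the absence of H3K4me2 calls at these TSSs in that library is the choice itself and not a finding. At the width limit, 14 TSS gaps of 591 to 600 bp were just inside, among them Ephx2 at 598 bp and Alkbh5 at 600 bp, and 14 of 601 to 610 bp were just outside, among them Rps6ka5 and Cacybp at 601 bp.

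The study asked how the histone demethylase LSD1 acts on chromatin in the liver. H3K4me2 was measured by ChIP-seq in whole liver of LSD1 fl/fl mice of the C57BL/6 strain given AAV8-TBG-Cre as adults (LSD1-LKO) or AAV8-TBG-GFP (control), and LSD1 itself was measured in liver of wild-type C57BL/6 mice. Each of the 3 lists joined the peaks of 2 ChIP libraries, so there were 6 ChIP libraries, each with a control library that the labels call input without antibody and the methods call IgG, so fold enrichments are relative to one or the other. Both H3K4me2 groups carried the floxed alleles and received a virus. The TBG promoter acts in hepatocytes, so the other cells of an LSD1-LKO liver keep LSD1, and fewer cells of a type cannot be told apart from less signal per cell in whole tissue. The methods describe a high-fat diet after the virus and do not say whether the ChIP animals received it, and nothing stated that the libraries of a group came from separate animals. Of 10 hepatocyte genes, Alb, Apob and Ttr among them, 9 or 10 had an H3K4me2 interval within 1 kb of a TSS in each of the 4 H3K4me2 libraries, of 6 genes of other tissues none had one, and of 6 genes of other liver cells Stab2 had one in each library and Lrat in both LSD1-LKO libraries.

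H3K4me2 marks nucleosomes around active and poised promoters and at enhancers. At an active start site the nucleosome is often displaced, so that transcription factors and RNA polymerase II can reach the DNA, and the methylated nucleosomes stand on either side of a dip. LSD1, encoded by Kdm1a, removes mono- and dimethyl groups from H3K4 and is brought to promoters and enhancers by transcription factors and corepressor complexes. A gap in a peak list is a stretch where the enrichment of 1 library did not reach the threshold of the peak caller. It is not a measurement of nucleosome occupancy.

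The sequences of 6 TSS gaps show what lay in these stretches, from a GC-rich start with a strong LSD1 peak to a CpG-poor start of a liver gene. Each is the part of the gap upstream of the TSS, from the mm10 reference, read 5′ to 3′ along the strand of the gene, and its last base is the base before the TSS. Capitals mark the motifs searched on both strands, namely GGGCGG for the GC box, CCAAT for the box of that name, CCGGAAG for the ETS core, TATAAA for the TATA box, TGACGTCA for the cyclic AMP response element (CRE), CAAAGGTCA for the ERR element, and the NRF1 motif by its name alone. Kmt2a had an LSD1 peak of high significance, Rictor and Got1 had a gap in the first control library alone, Rps21 and Psmb2 had a narrower gap in the first LSD1-LKO than in the first control library, and Cyp2j5 was the CpG-poor example.
Kmt2a (chr9:44881297-44881541, minus strand): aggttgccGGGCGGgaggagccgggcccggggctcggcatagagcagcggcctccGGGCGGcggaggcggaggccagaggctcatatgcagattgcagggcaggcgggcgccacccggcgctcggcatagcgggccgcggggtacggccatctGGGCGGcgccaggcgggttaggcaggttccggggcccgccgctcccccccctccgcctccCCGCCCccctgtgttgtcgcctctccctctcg
Rictor (chr15:6708204-6708378, plus strand): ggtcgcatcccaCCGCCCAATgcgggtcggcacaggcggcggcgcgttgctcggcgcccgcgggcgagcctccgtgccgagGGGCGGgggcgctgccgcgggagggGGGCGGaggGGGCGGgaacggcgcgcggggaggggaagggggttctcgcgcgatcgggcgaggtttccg
Got1 (chr19:43524606-43524729, minus strand): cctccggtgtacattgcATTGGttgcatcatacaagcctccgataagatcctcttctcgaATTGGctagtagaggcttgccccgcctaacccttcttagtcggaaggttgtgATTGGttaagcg
Rps21 (chr2:180257220-180257376, plus strand): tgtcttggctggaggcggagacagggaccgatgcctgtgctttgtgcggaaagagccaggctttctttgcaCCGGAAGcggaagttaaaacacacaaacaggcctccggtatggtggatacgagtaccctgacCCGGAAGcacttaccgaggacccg
Psmb2 (chr4:126677461-126677629, plus strand): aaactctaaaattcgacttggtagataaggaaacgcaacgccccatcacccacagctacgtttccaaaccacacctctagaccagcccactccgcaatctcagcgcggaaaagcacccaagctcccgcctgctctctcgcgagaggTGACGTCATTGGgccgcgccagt
Cyp2j5 (chr4:96664155-96664301, minus strand): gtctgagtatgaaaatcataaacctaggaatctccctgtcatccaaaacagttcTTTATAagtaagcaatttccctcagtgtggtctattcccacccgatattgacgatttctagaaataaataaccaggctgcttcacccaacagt

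The stretches of Kmt2a and Rictor held 4 GC boxes each, and that of Got1 held 3 CCAAT boxes. In Psmb2 a CRE and a CCAAT box shared a letter, and in Rictor a GC box and a CCAAT box overlapped, so each pair forms a single run of capitals. The Rps21 stretch held 2 ETS cores and the Cyp2j5 stretch a TATA box. A match to such letters is a description of the sequence and not evidence that a factor was bound.

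TSS gaps were GC-rich and rich in CpG dinucleotides. The median GC content was 64.5% in the gaps and 51.9% in their flanking intervals, and the ratio of observed to expected CpGs was 0.855 in the gaps and 0.590 in the flanks. The 9691 gaps without a protein-coding TSS had a GC content of 47.5% and a CpG ratio of 0.25, near those of their own flanks at 48.7% and 0.290. In the central 100 bp of the gaps, a GC box lay in 40.4% of TSS gaps and 6.88% of the others, a CCAAT box in 23.8% and 13.1%, and an ETS core in 8.68% and 1.14%. A TATA box went the other way, with 1.84% of TSS gaps and 5.57% of gaps without a TSS. The base composition of the sets differs, and its part in these motif shares was not tested.

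The same motifs were counted around the annotated starts of genes, in windows from 150 bases before to 50 bases after the start. Of 1932 gene starts that lay in a control gap, 66.9% had a GC box, 42.9% a CCAAT box, 19% an ETS core, 3.73% a CRE and 5.12% the NRF1 motif. Of 8262 gene starts inside a control interval, the shares were 59.9%, 28.4%, 15.4%, 3.32% and 2.35%. Over all 21938 gene starts they were 39.8%, 30.7%, 9.46%, 2.21% and 1.56%. GC boxes, CCAAT boxes, ETS cores and the NRF1 motif were more frequent at starts in a gap than at starts under a peak, with 95% Wilson intervals that did not overlap, whereas CREs and TATA boxes (3.83% and 3.84%) were about as frequent. The ERR element lay in 5 of the 1932 windows (0.259%) and in 0.228% of all.

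The width of TSS gaps ran from 101 to 600 bp, with a median of 268 bp and quartiles of 185 and 357 bp. Gaps without a TSS were narrower, with a median of 225 bp and quartiles of 147 and 335 bp. The peak caller joined intervals that lay closer than the narrowest gap of 101 bp, and a wide gap offers more bases for a TSS to fall in, so the rule itself favours width. By width, 728 TSS gaps had 101 to 200 bp, 796 had 201 to 300 bp, 537 had 301 to 400 bp and 440 had 401 to 600 bp. The flanking intervals had a median width of 887 bp at TSS gaps and 635 bp at the others, and the weaker flank had a median fold enrichment of 3.42 and 6.01 in the first- and second-listed libraries against 2.73 and 4.76.

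**Figure D1:**
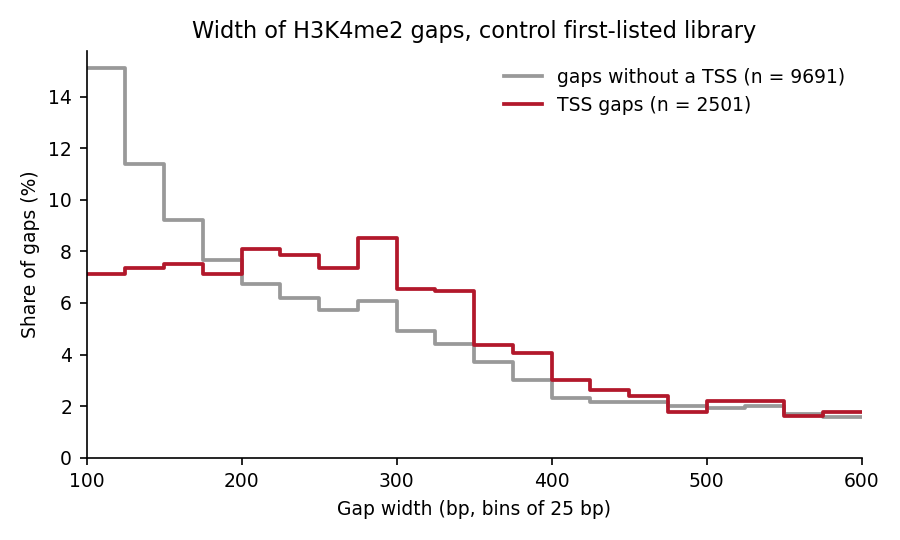
Share of gaps (%) by gap width in bins of 25 bp, for the 2501 TSS gaps (red) and the 9691 gaps without a protein-coding TSS (grey) of the control first-listed library. Gaps without a TSS pile up at the narrow end, whereas TSS gaps spread evenly up to about 300 bp and have the higher median, 268 against 225 bp.

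Most TSS gaps served 1 gene. A single gene had TSSs in 2277 gaps, 224 (8.96%) held TSSs of more genes, with at most 3, and 201 (8.04%) had TSSs on both strands. Such pairs included Fam126b with Ndufb3, a complex I subunit, Kdm1b, the second H3K4 demethylase of the LSD1 family, with Tpmt, and Gabpa, a subunit of an ETS factor, with Atp5j, a subunit of ATP synthase. Conversely, 2600 gene symbols had 1 TSS gap, 60 had 2, and Cers2, Shc1 and Zmynd8 had 3 each from alternative promoters. Dbp, a clock-controlled transcription factor, had a gap of 545 bp and another of 586 bp that shared a flanking interval.

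Gene starts did not sit in the middle of their gaps. In the 1774 gaps with the annotated start of a gene, the median distance was 146 bp to the upstream edge and 105 bp to the downstream edge, and the start was nearer to the downstream edge in 1095 (61.7%). The downstream flanking interval was wider than the upstream one in 1330 (75%), with medians of 1129 and 694 bp. It was also the stronger one by median fold enrichment, 4.70 against 4.07 in the first library and 6.73 against 6.36 in the second. Of all TSS gaps, 64.7% were wholly covered in the second library. A peak that spans the gap gives both flanks the same value there, so such gaps do not add to the difference in the second library. In the second-listed control library, which the choice of gaps did not use directly, coverage at these starts was 97.5% at 380 bp upstream, 71.5% at 40 bp upstream and 98.8% at 500 bp downstream. At the start itself 72.8% were covered. Each flank was listed only with an overlapping peak of the second library, so the choice of gaps favours coverage of the flanks, and part of this dip follows from it.

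**Figure D2:**
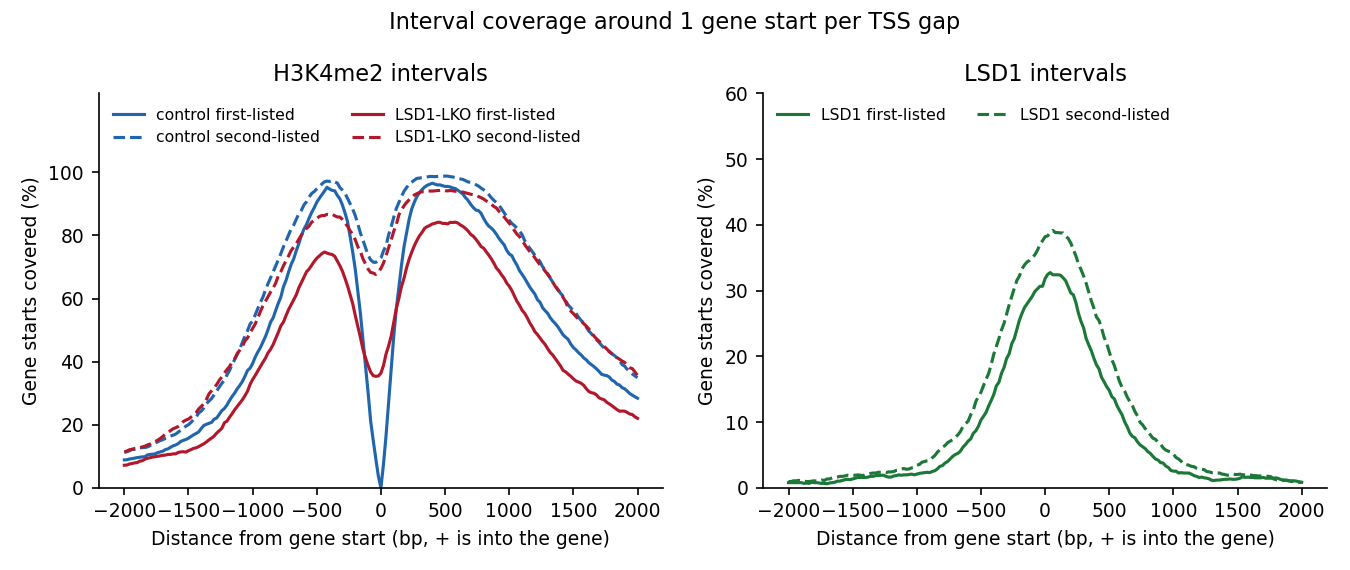
Share of the 1774 gene starts in TSS gaps covered by a listed interval (%), against distance from the gene start (bp, positive into the gene). Left, H3K4me2 in the control (blue) and LSD1-LKO (red) libraries, where solid lines are first-listed and dashed lines second-listed libraries and the control first-listed line is 0 at the start by the choice of gaps. Right, LSD1 in wild-type liver, which peaks at the gap, at 32.8% in the first-listed and 39.2% in the second-listed library.

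LSD1 intervals overlapped TSS gaps more often than the other gaps. At least 1 bp of an LSD1 first-listed interval lay in 941 of 2501 TSS gaps (37.6%, 95% Wilson interval 35.7 to 39.5), against 18.5% of all 12192 gaps and 1318 of 9691 gaps without a TSS (13.6%, interval 12.9 to 14.3). Intervals given here cover counting error only, and neighbouring regions of the same libraries are not replicates. In the second-listed LSD1 library the shares were 40.1% and 15%. LSD1 covered 50% or more of the gap in 29.8% of TSS gaps and 10.5% of the others, and the whole gap in 478 TSS gaps (19.1%) and in 6.20% of the others. With only LSD1 entries of a −log10 p of 5 or more, the share of TSS gaps with LSD1 was 9.56%. The share of the other gaps at that threshold is not given, so the difference is not shown for these stronger entries.

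With all LSD1 intervals, the difference in overlap of at least 1 bp held at each width and each strength of the flanks. LSD1 lay in 34.1%, 39.4%, 41.3% and 35.7% of TSS gaps from the narrowest to the widest of the 4 width classes, and in 12.9% to 14.0% of gaps without a TSS. When all gaps were split into 5 classes of equal size by the significance of the weaker flank, the share of TSS gaps with LSD1 was 26.6% in the weakest and 40.6% in the strongest class, and that of the others 9.98% and 17.5%. Per base, LSD1 covered 28.7% of TSS gap bases and 21.7% of the bases in the 300 bp on either side in the first-listed library, and 34.1% and 28.1% in the second. In gaps without a TSS these shares were 9.73% and 8.28%, and 11.5% and 10.7%.

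CpG content moved with LSD1. TSS gaps with LSD1 had a median GC content of 66.7% and a CpG ratio of 0.892, and TSS gaps without it 62.8% and 0.820. In gaps with a CpG ratio of 0.75 or more, LSD1 overlapped 723 of 1690 TSS gaps (42.8%, interval 40.4 to 45.2) and 302 of 979 gaps without a TSS (30.8%, interval 28.0 to 33.8). Below a ratio of 0.25, it overlapped 31 of 135 TSS gaps (23.0%, interval 16.7 to 30.7) and 497 of 4836 others (10.3%). The share was higher at TSS gaps in each of the 4 CpG classes, but the ratio of the shares was nearer to 1 at high CpG content than over all gaps. Starts of non-coding genes were not used here, and their part in the gaps without a protein-coding TSS was not tested.

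**Figure D3:**
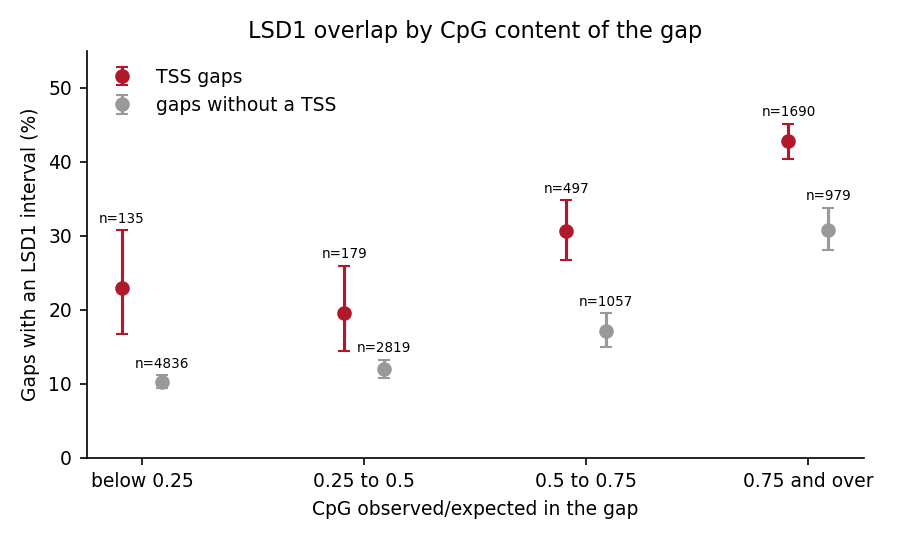
Share of gaps overlapped by an LSD1 first-listed interval (%) in 4 classes of the CpG observed/expected ratio of the gap, for TSS gaps (red) and gaps without a protein-coding TSS (grey). Points are shares, bars are 95% Wilson intervals and n is the number of gaps. In each class TSS gaps lie higher, from 23.0% against 10.3% in the lowest class to 42.8% against 30.8% in the highest.

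LSD1 coverage of gene starts also differed with whether the start lay under H3K4me2 or in a gap. An LSD1 first-listed interval covered the start base of 618 of 1932 genes that started in a control gap (32.0%, interval 29.9 to 34.1) and 2012 of 8262 genes that started inside an interval (24.4%, interval 23.4 to 25.3). It covered 13.2% of starts within 1 kb of an interval and 0.814% of the 9708 starts farther away. The same order was found with the second-listed LSD1 library, at 38.2%, 28.6%, 16.6% and 1.01%, and with the gaps of each of the other 3 H3K4me2 libraries, where 29.7% to 31.8% of starts in a gap and 23.9% to 24.5% of starts in an interval were covered. Starts in a gap had a listed interval on both sides by definition. The part of peak strength and CpG content in this order was not tested.

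The 941 TSS gaps with LSD1 were met by 938 different LSD1 intervals. These had a median width of 600 bp, against 417 bp for all 14584 LSD1 intervals, and a median fold enrichment of 3.41 and 3.77 in the first- and second-listed library against 2.90 and 3.01. In 473 gaps (50.3%) the LSD1 interval reached past both edges, and in 432 (45.9%) its centre lay inside the gap. LSD1 was found in 78 of 201 gaps with TSSs on both strands (38.8%), close to the share of all TSS gaps.

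The 6 TSS gaps with the most significant LSD1 peaks belonged to Gpcpd1, a glycerophosphocholine phosphodiesterase, Epc1, a subunit of the NuA4 histone acetyltransferase, Mrpl40, a mitochondrial ribosomal protein, Limk2, a kinase of cofilin, Ywhae, a 14-3-3 protein, and Kmt2a, an H3K4 methyltransferase. They were chosen by their LSD1 values, which are given as a description. At Gpcpd1 the LSD1 fold enrichment was 13.4 and 14.0 in the first- and second-listed libraries, and LSD1 covered the whole gap, which was 351 bp wide in the first control library, 127 bp in the second and filled in the second LSD1-LKO library. In the first LSD1-LKO library a flank of this gap was not listed. At Kmt2a LSD1 fold enrichment was 9.14 and 10.5, and a gap stood near the start in every H3K4me2 library, 265 and 222 bp wide for control, 330 and 213 bp wide for LSD1-LKO liver. The interval downstream of the Kmt2a start began 20 bp away, and the start base itself lay near the edge of the gap and was covered by the interval in both second-listed libraries.

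At Mrpl40 (LSD1 fold enrichment 10.8 and 11.5) the gap was 212 and 345 bp wide in the first-listed control and LSD1-LKO libraries and was filled in both second-listed libraries. Limk2 (11.9 and 10.2) showed the same order, with 128 and 167 bp in the first-listed libraries and full coverage in the second-listed ones. Ywhae had gaps of 589 and 114 bp in the control libraries and 545 bp in the first LSD1-LKO library, and was covered in the second. In these examples the libraries differed by their place in the lists as much as by genotype.

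Whether LSD1 loss changed the gaps was first read from the LSD1-LKO first-listed intervals. A gap was called filled where they covered every base, narrowed or widened where the uncovered stretch between the flanks differed by over 100 bp, kept where it lay within 100 bp, and as having a flank not listed where the intervals on 1 or both sides had no counterpart. The stretch measured was the uncovered one with the largest overlap with the control gap, and it could reach into a flank. It need not hold the TSS, so the TSS of a kept, narrowed or widened gap can lie under an interval. A flank can be missing from a list because it was called in only 1 library of the group. Of the 2501 TSS gaps, 688 were filled (27.5%, interval 25.8 to 29.3), 233 narrowed (9.32%), 596 kept (23.8%), 557 widened (22.3%) and 427 had a flank not listed (17.1%). Over all 12192 gaps the shares were 32.1% filled, 5.65% narrowed, 11.8% kept, 15% widened and 35.5% with a flank not listed. TSS gaps were thus kept more often, at 23.8% against 8.64% of gaps without a TSS, and lost a flank less often, at 17.1% against 40.3%. The flanks of TSS gaps were wider and stronger, as given above. In the weakest of the 5 classes of flank significance, a flank was not listed for 62.1% of TSS gaps and 64.9% of the others. In the strongest class the shares were 8.59% and 15.4%. Kept gaps made up 7.26% and 5.57% in the weakest class, and 26.7% and 13.1% in the strongest. The part of flank width and strength in the classes was not tested beyond this split.

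The classes other than narrowed and flank not listed differed more with the place of a library in the list than with genotype. In the second-listed control library, 64.7% of the TSS gaps were filled, 16.2% narrowed, 15.1% kept and 4.0% widened, and no flank could be unlisted because the list holds only peaks present in both libraries. In the second-listed LSD1-LKO library 63.1% were filled, 10.6% narrowed, 11.9% kept and 3.0% widened, and 11.4% had a flank not listed. The second-listed libraries of both groups had wider intervals, with medians of 1161 and 1240 bp against 648 and 565 bp, and their peak names lacked a tag that the first-listed libraries carry. The part of that difference in the classes was not tested. For filled, kept and widened gaps the second control library was nearer to the second LSD1-LKO library than the LSD1-LKO libraries were to each other. Narrowed gaps were more frequent in the second control library, at 16.2%, than in either LSD1-LKO library, at 9.32% and 10.6%. The first control library chose the gaps, so the spread within control could not be measured in these classes.

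The choice of gaps in the control list could itself favour control, so the same was done from the other side. In the LSD1-LKO list 3074 TSS gaps were found, of which 44.7% were filled in the control first-listed library, 14.7% narrowed, 19.5% kept and 8.26% widened, with 12.8% lacking a flank. More gaps of the LSD1-LKO list were thus filled in control than the reverse, 44.7% against 27.5%. Where an uncovered stretch was present between the flanks in both first-listed libraries, the 1386 control gaps had a median width of 284 bp and measured 331 bp in the LSD1-LKO library, where 851 (61.4%) were wider. From the other side, of 1306 LSD1-LKO gaps 538 (41.2%) were wider in control, and the medians were 321 bp in their own library against 271 bp. Both readings gave the wider gap to the LSD1-LKO first-listed library. The second-listed libraries differed less, and the median width of their TSS gaps was 239 bp for control against 241 bp for LSD1-LKO.

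**Figure D4:**
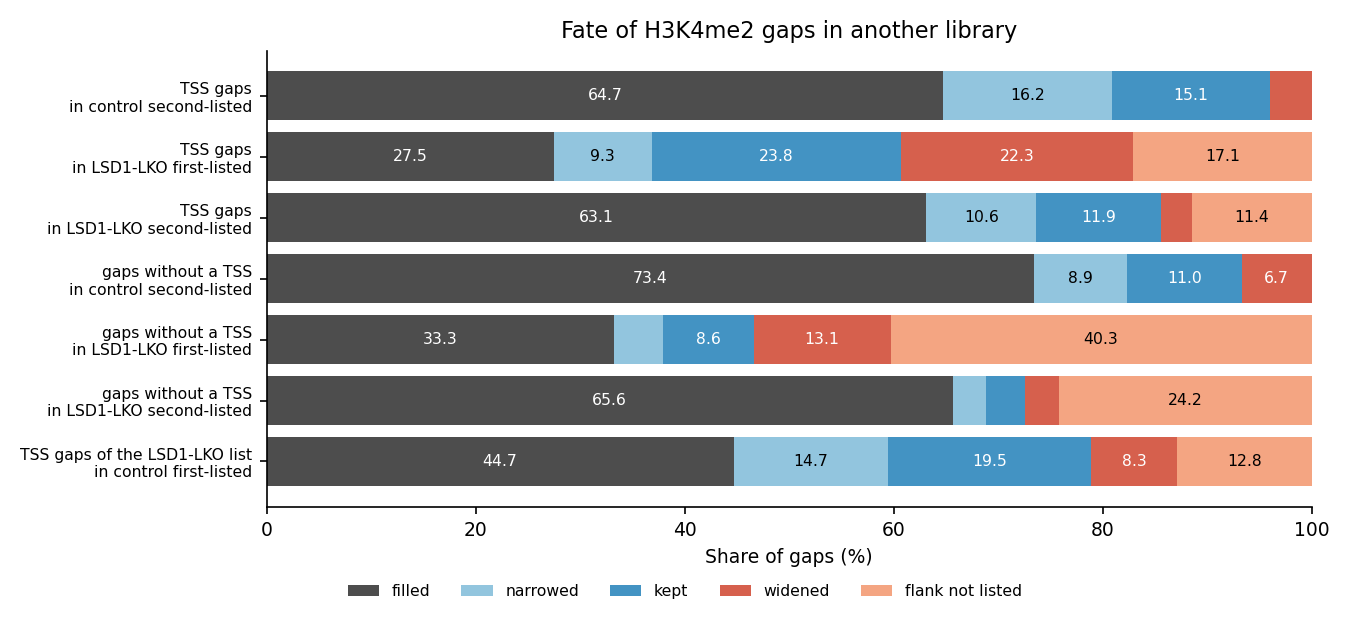
Share of gaps (%) that were filled, narrowed, kept or widened, or had a flank not listed, when gaps of 1 library were looked up in another. The first 6 bars take gaps of the control first-listed library and the last takes gaps of the LSD1-LKO first-listed library. Filled TSS gaps make up 64.7% in the other control library, 27.5% in the first-listed and 63.1% in the second-listed LSD1-LKO library.

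By library, 2501 and 958 TSS gaps were found for control, against 3074 and 999 for LSD1-LKO liver. The means were 1729.5 and 2036.5, a difference of 307 that was smaller than the difference between the libraries of either group (exact two-sided permutation test, p = 0.667, where 2 libraries against 2 cannot go below 0.333). The shares of TSS gaps overlapped by LSD1 were nearly equal whichever library gave the gaps, 37.6% and 38.0% for control, 38.0% and 37.0% for LSD1-LKO liver, compared with 12.7% to 13.6% of the other gaps.

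TSS gaps with and without LSD1 in wild-type liver were filled at like shares and differed in how often a flank was not listed. Of the 941 TSS gaps with LSD1, 252 were filled in the LSD1-LKO first-listed library (26.8%, interval 24.0 to 29.7), and of the 1560 without LSD1, 436 (27.9%, interval 25.8 to 30.2). Kept gaps made up 27.2% and 21.8%, and widened gaps 24.1% and 21.2%. A flank was not listed for 112 with LSD1 (11.9%, interval 9.99 to 14.1) and 315 without (20.2%, interval 18.3 to 22.3). In the second LSD1-LKO library the shares with a flank not listed were 8.82% and 13%, and the shares filled 64.9% and 62.0%. From the weakest to the strongest class of flank significance, TSS gaps with LSD1 rose from 26.6% to 40.6%. Over the same classes, those with a flank not listed in the first LSD1-LKO library fell from 62.1% to 8.59%. The part of flank strength in the difference between gaps with and without LSD1 was not tested. The change in width was alike in gaps with and without LSD1, with a median of 52 and 50 bp wider in the LSD1-LKO first-listed library. The share filled in the LSD1-LKO first-listed library was 42.0% for TSS gaps of 101 to 200 bp and 13.9% for those of 401 to 600 bp. Narrowed gaps went the other way, with 0 of 728 at 101 to 200 bp and 26.4% at 401 to 600 bp. The share narrowed is thus bound to the starting width.

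Where flanks were lost, it was mostly the upstream one. Of the 427 TSS gaps with a flank not listed in the LSD1-LKO first-listed library, 268 lacked the upstream flank alone, 100 the downstream flank alone and 59 both. The upstream flank was the narrower and weaker one in control liver, as given above. These gaps had a median GC content of 60.4% and a CpG ratio of 0.771, the lowest of the 5 classes, where kept gaps had 65.8% and 0.885. Of the 557 widened gaps, 333 stayed within 600 bp and 224 went beyond, and the median width of 250 bp in control became 544 bp. Filled gaps had been the narrowest in control, with a median of 215 bp.

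Examples were taken from each class by the strength of the weaker flank in the control list. Among the filled gaps, Got1, an aspartate aminotransferase, had a gap of 219 bp in the first control library, and Rictor, a subunit of mTORC2, of 213 bp. U2af2, a splicing factor, had 326 bp and Agtpbp1, a deglutamylase of tubulin, 168 bp. All 4 were covered in the second control library and in both LSD1-LKO libraries, so these gaps stood in 1 library of 4. Agtpbp1 had another TSS gap, shared with Naa35, that stood in all 4 libraries. It was 374 and 167 bp wide in the control libraries and 331 and 339 bp in the LSD1-LKO ones. At Rictor LSD1 lay over the whole gap, with a fold enrichment of 5.22 and 2.82, and at Got1 no LSD1 interval overlapped the gap.

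Kept gaps included Ccne2, a cyclin, with 254 and 284 bp in the first-listed libraries of control and LSD1-LKO, and Ythdf2, a reader of methylated RNA, with 334 and 256 bp. Both were covered in the second-listed libraries. The gap with the opposite starts of Mocs3 and Dpm1, of 532 bp, was classed as kept by an uncovered stretch of 502 bp. That stretch lay upstream of the Mocs3 start and overlapped only the edge of the control gap. The Mocs3 start itself was covered by an interval in the first LSD1-LKO library. Narrowed gaps included that of Xpc and Lsm3, a DNA repair and an RNA decay factor on opposite strands, at 376 bp in the first control library, 0 in the second, and 214 and 318 bp in the LSD1-LKO libraries. Here both LSD1-LKO libraries had a gap and the second control library had none. Nectin3 and Cdh2, both cell adhesion molecules, had 449 and 303 bp in the first control library and no gap in the second-listed ones. In the first LSD1-LKO library they had 268 and 121 bp. The Nectin3 stretch there lay upstream of the start, which an interval covered.

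Among widened gaps, Capza1, an actin capping protein, had an uncovered stretch of 310 bp in the first and 0 in the second control library, and of 1100 and 201 bp in the LSD1-LKO libraries. Aup1 and Htra2 shared a gap of 230 bp that measured 425 bp in the first LSD1-LKO library, and Polr2l, a subunit of RNA polymerases, went from 152 to 331 bp. Both were covered in the second-listed libraries, as were Rnf149, with 244 and 904 bp in the first-listed ones, and Kdm5a, an H3K4 demethylase, with 310 and 643 bp. Pdik1l, Bpgm, the bisphosphoglycerate mutase, Nup50, a nuclear pore protein, and Cnst lacked a flank in both LSD1-LKO libraries while both flanks were listed in both control libraries, as the choice of gaps required. At Bpgm neither flank was listed in either LSD1-LKO library. At Pdik1l and Nup50 neither flank was listed in the first LSD1-LKO library, and the downstream flank was listed in the second. LSD1 overlapped the gap at Pdik1l, Nup50 and Cnst and not at Bpgm.

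**Figure D5:**
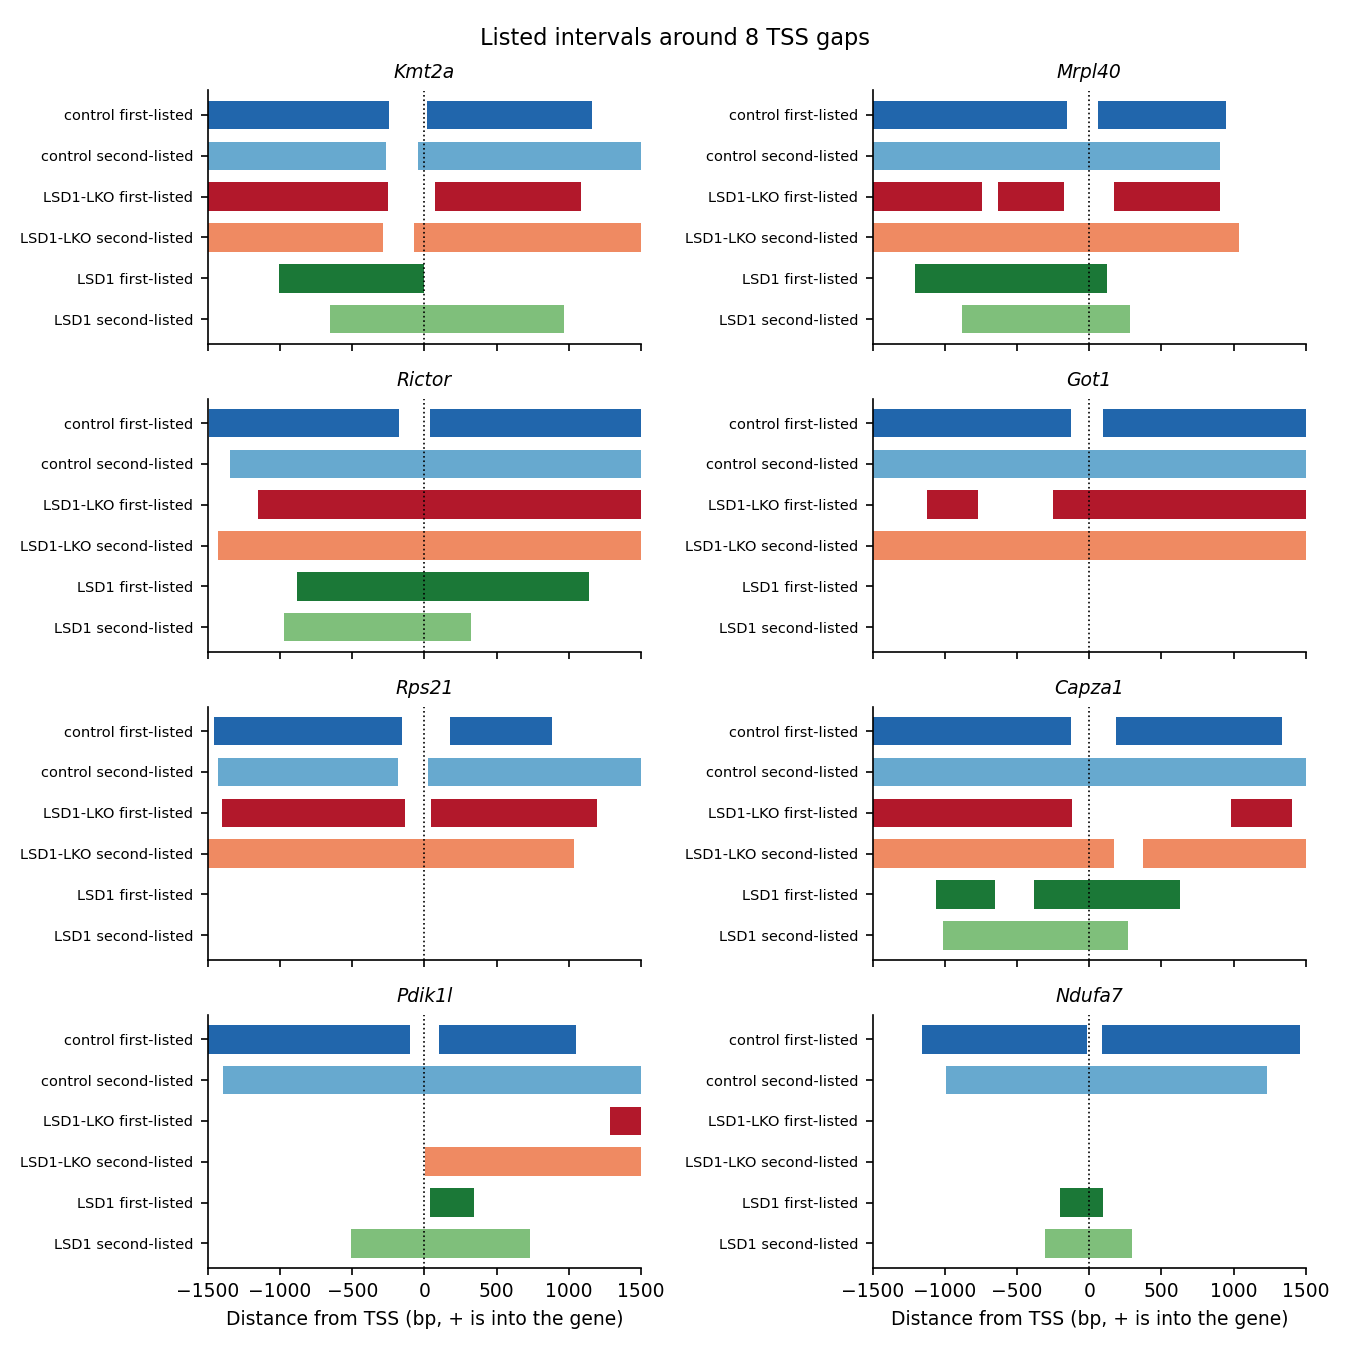
Listed intervals of the 4 H3K4me2 libraries (blue, control; red, LSD1-LKO) and the 2 LSD1 libraries (green) within 1500 bp of the TSS at 8 TSS gaps, drawn to scale along the direction of the gene (distance from TSS in bp, dotted line at the TSS). At Got1 and Rictor the gap at the TSS stands in the first control library only, at Capza1 it measures 310 bp in the first control and 1100 bp in the first LSD1-LKO library, and at Ndufa7 no H3K4me2 interval is listed in LSD1-LKO liver within this window.

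Few TSS gaps were present in every library. A TSS of the gap lay in a gap of 600 bp or less also in the second control library in 642 cases (25.7%), in the first LSD1-LKO library in 979 (39.1% of the control and 31.8% of the LSD1-LKO TSS gaps) and in the second in 465 (18.6%). It did so in all 4 libraries in 156 cases (6.24%), with 179 genes. Their median widths were 329.5 and 242 bp in the control libraries, against 365.5 and 268 bp in the others, and LSD1 overlapped 65 of them (41.7%, interval 34.2 to 49.5), close to the share of all TSS gaps. TSSs on both strands were found in 21.

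The gap at Dbp was among them, at 545 and 469 bp in the control libraries, then 480 and 507 bp in the LSD1-LKO ones, as was Rxra, a partner of nuclear receptors, at 468, 102, 375 and 295 bp. Hes1, a repressor of the Notch pathway, had 364, 176, 324 and 272 bp, Hexim1, an inhibitor of P-TEFb, 550, 226, 484 and 363 bp, and the shared start of the mitochondrial chaperonins Hspd1 and Hspe1 506, 436, 435 and 195 bp, in the same order of libraries. Hes1, Hexim1 and the chaperonin pair were chosen after their values were seen. At Dbp the widths of the groups overlapped, and at Rxra and Hexim1 the widths within control differed by more than the groups did.

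Over all annotated gene starts, which do not depend on the choice of gaps in 1 list, gaps were as frequent in LSD1-LKO as in control liver when both libraries were required. There were 489 starts in a gap in both control libraries (2.23%) and 491 in both LSD1-LKO libraries (2.24%), of which 127 were in a gap in all 4. A start lay in a gap in both control libraries and under an interval in both LSD1-LKO libraries in 50 cases, 0.228% of all starts, and the reverse was found in 122 cases, 0.556%. LSD1 covered the start in 22 of the 50 (44.0%, interval 31.2 to 57.7) and 30 of the 122 (24.6%, interval 17.8 to 32.9), compared with 31.5% of the 489 in a gap in both control libraries (interval 27.5 to 35.7), 29.7% of the 491 in both LSD1-LKO libraries (interval 25.9 to 33.9), 29.9% of the 127 in a gap in all 4 and 24.3% of the 5179 starts that lay in an interval in all 4 libraries. The interval of the 50 overlapped those of all starts in a gap. Of the 489 starts in a gap in both control libraries 50 thus switched, and of the 491 in both LSD1-LKO libraries 122, about as many as stood in a gap in all 4. The starts under an interval were unequal in number, 7764 in both control and 6786 in both LSD1-LKO libraries. By library, 37.7% and 47.1% of all starts lay in an interval for control, and 32.9% and 46.9% for LSD1-LKO. The part of this inequality in the counts of 50 and 122 was not tested.

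The 50 starts with a gap in control alone included Nr1i3, the nuclear receptor CAR, Txnip, a regulator of glucose uptake, Uqcrfs1, the Rieske protein of complex III, and Lamp1, a lysosomal membrane protein. The 122 with a gap in LSD1-LKO alone included C3 and Serpina1a, made by hepatocytes for the plasma, Khk, the ketohexokinase, Tomm20 and Tomm22 of the mitochondrial import pore, Ndufs5 and Ndufs7 of complex I, and the ribosomal protein genes Rpl28, Rpl7a and Rps16. These genes were chosen after their values were seen. The mitochondrial genes that the study listed as lowered in its LSD1-LKO mice made up 12 of the 122 (9.84%, interval 5.72 to 16.4) and 1 of the 50. They made up 5.32% of the 489 starts in a gap in both control libraries, 5.09% of the 491 in both LSD1-LKO libraries, 2.47% of the starts in an interval in both control libraries, and 1.62% of all starts. The list was chosen on the same mouse model and is not independent evidence of a direction.

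TSS gaps were found in each gene group examined, at shares from 10.6% to 48.0%. Read against 12.2% of all protein-coding genes, and 20.4% of those with a control interval within 1 kb of a TSS, a TSS gap was found for 12 of 25 liver transcription factors (48.0%), 9 of 20 circadian clock genes (45.0%), 9 of 22 genes of the tricarboxylic acid cycle (40.9%) and 32 of 85 cytosolic ribosomal protein genes (37.6%). It was found for 9 of 25 plasma protein genes (36.0%), 13 of 46 genes of complex I (28.3%) and 8 of 39 proteasome subunits (20.5%). Mitochondrial ribosomal proteins had 11 of 78 (14.1%), genes for the upkeep and transcription of mitochondrial DNA 4 of 27 (14.8%), cytochrome P450 genes 10 of 94 (10.6%) and H3K4 methylases and demethylases 3 of 26 (11.5%). Of the 94 cytochrome P450 genes 52 had a control interval within 1 kb, and 19.2% of these had a gap. Reads from near-identical copies could be shared within the cytochrome P450 and ribosomal protein families. The classes of these groups' gaps are counted in the LSD1-LKO first-listed library, where 27.5% of all TSS gaps were filled, 9.32% narrowed, 23.8% kept, 22.3% widened and 17.1% without a flank, and LSD1 overlapped 37.6%.

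The liver transcription factors with a TSS gap were Esrra, Foxa1, Gata6, Hnf4a, Nr1h4, Nr1i3, Nr2f2, Nr5a2, Onecut1, Ppara, Rora and Rxra, and their 14 gaps had LSD1 in 3. In the LSD1-LKO first-listed library 5 of these were filled and 5 lacked a flank. At Foxa1, a pioneer factor of the liver, the gap of 111 bp in the first control library was filled in the second control and the first LSD1-LKO library, and a flank was missing in the second LSD1-LKO library. At Gata6 no interval was listed within 1500 bp of the TSS in either LSD1-LKO library. Clock genes with a gap were Arntl, Cry2, Csnk1d, Csnk1e, Dbp, Nr1d1, Per1, Per3 and Tef, with LSD1 in 5 of 12 gaps. Csnk1d, a kinase of PER proteins, had a gap of 229 and 217 bp in the first-listed libraries and none in the second-listed ones.

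In the tricarboxylic acid cycle and the enzymes that feed it, the 9 genes with a TSS gap included Cs, Mdh2, Ogdh, Pdhb and Sdhb, and LSD1 overlapped 6 of the 9 gaps. Mdh2, the mitochondrial malate dehydrogenase, had 512 and 0 bp in the control libraries against 503 and 290 bp in the LSD1-LKO ones, with LSD1 over 55.3% of the gap. Cs, the citrate synthase, had 288 and 397 bp in the first-listed libraries and was covered in the second-listed ones, without LSD1. Complex I genes had LSD1 at 5 of 13 gaps, of which 5 were kept and 2 filled. At the shared start of Ndufa7 and Rps28 the gap of 104 bp was filled in the second control library, and the flanks were not listed in either LSD1-LKO library.

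Plasma protein genes with a gap were Ahsg, Apoa1, Apoa2, Apob, Apoe, F10, Fgb, Hp and Ttr. A flank was not listed in the LSD1-LKO first-listed library for 5 of these 9 gaps, against 17.1% of all TSS gaps, and LSD1 overlapped 2, against 37.6%. At Apoe, an apolipoprotein of remnant lipoproteins, a gap of 249 and 151 bp stood in both control libraries and a flank was missing in both LSD1-LKO libraries. At Apoa1, the main protein of high-density lipoprotein, the gap of 329 bp lacked a flank in the first LSD1-LKO library and was filled in the second-listed libraries of both groups. Ahsg (fetuin-A) had 359 bp in the first control library and 1672 bp in the second, against 1870 and 1735 bp after LSD1 loss, so the first control library stood alone. The CpG ratio of these 3 gaps was 0.289 to 0.333, below the median of TSS gaps. Of the 10 cytochrome P450 gaps, 5 lacked a flank and 4 were widened in that library, against 17.1% and 22.3% of all TSS gaps. Among the widened ones, Cyp39a1, an oxysterol hydroxylase, had 224 and 397 bp in the first-listed libraries and Cyp4v3 166 and 630 bp, and both were covered in the second-listed ones.

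Cytosolic ribosomal protein genes had 32 gaps, of which 8 were filled, 9 kept, 8 widened, 2 narrowed and 5 without a flank, and LSD1 overlapped 10 (31.3%). Rpl14 had 127 and 216 bp in the first-listed control and LSD1-LKO libraries and was covered in the second-listed ones. The stretch in the first LSD1-LKO library lay upstream of the Rpl14 start, which an interval covered. Rpl8 had 569 and 208 bp in the first-listed and 0 and 363 bp in the second-listed libraries, and Rps13 167 and 0 bp, then 0 and 126 bp. At Rpl8 and Rps13 the direction thus turned between the pairs of libraries. Proteasome genes had 8 gaps. In the LSD1-LKO first-listed library 3 of them, at Psmb1, Psmb2 and Psma6, were narrowed, against 9.32% of all TSS gaps. The median width of the 8 was 318.5 bp, against 268 bp for all TSS gaps, and wider gaps were more often narrowed, as given above. Psmb1 had 288 and 123 bp in the first-listed libraries but 0 and 278 bp in the second-listed ones. At Psmb2 LSD1 covered the whole gap, which was 329 and 0 bp wide for control, and 121 and 213 bp wide for LSD1-LKO. In the first LSD1-LKO library the stretches at Psmb2 and Psma6 lay upstream of the start, which an interval covered.

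The mitochondrial genes that the study listed as lowered in LSD1-LKO liver had a TSS gap in 109 of 356 (30.6%), and in 31.2% of the 349 with a control interval within 1 kb, against 12.2% and 20.4% of all genes. LSD1 overlapped 30 of their 110 gaps (27.3%), below the 37.6% of all TSS gaps. In the LSD1-LKO first-listed library 32 of these gaps were filled (29.1%), 14 narrowed, 12 kept (10.9%), 28 widened (25.5%) and 24 lacked a flank (21.8%). Kept gaps were thus less frequent than the 23.8% of all TSS gaps. The list was chosen on this mouse model, so that these counts are not independent evidence of a direction.

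Of 15 genes that the study tested by ChIP-qPCR or followed up, 3 had a TSS gap, Polrmt, the mitochondrial RNA polymerase, Mrpl45 and Rps21. The genes were not all tested for the same protein or mark. The study's text names Polrmt and Rps21 for binding of GABPα, the product of Gabpa, and Nmnat1 and Fgf21 for H3K4me2. The other 12, among them Nmnat1, Polg, Sdha and Fgf21, had none, and Cox7a2 had no control interval within 1 kb. The Polrmt gap of 107 bp lacked a flank in the first LSD1-LKO library and was filled in both second-listed libraries. Its weaker flank had a fold enrichment of 2.05 in the first control library, against a median of 3.42 for TSS gaps. Mrpl45 had 213 bp in the first control library and 0 in the other 3. Rps21 had 337 and 205 bp in the control libraries against 179 and 0 bp in the LSD1-LKO ones. No LSD1 interval overlapped any of these 3 gaps.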

How the data were processed

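LSD1 and H3K4me2 were measured by ChIP-seq in mouse liver, in 6 ChIP and 6 control libraries. Per the methods of the study, the authors mapped reads to mm10 with Bowtie2, called narrow peaks in each library with MACS against control libraries (IgG in the methods, input in the labels), and intersected both libraries' peaks with bedtools (version 2.25.0 in the submitters' processing notes). The deposited lists pair a peak of the first-listed library with a peak of the second in each entry. For each peak the authors gave coordinates, a fold enrichment over the control library, and −log10 p-values and q-values. Scores and summit columns were not used, nor were 12 columns of per-library values without a role here. No read counts were used, so the depth of the libraries is unknown. The columns carry no replicate number, and libraries are named by their place in the list.

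Intervals were sorted, gaps and their classes computed with Python 3.11.15 (pandas 2.3.3, scipy 1.17.1), and sequence read from mm10 with pysam 0.24.0. Gap classes were tested on simulated lists. TSSs came from every transcript of protein-coding genes in GENCODE mouse release 21. Shares have 95% Wilson intervals. The members and gene lists were chosen with earlier results of these data known. Genes were named by rule, namely the 6 TSS gaps with the highest LSD1 significance, 4 per class and up to 3 per gene list with the strongest weaker flank, and the genes the study tested by ChIP-qPCR. The symbols of 4 genes of the study's list were matched through an older symbol. Alternatives changed the width limit, TSS set, library, overlap, tolerance and significance. Part of the genes and gap sequences that this rule names are not reported here.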

Additional observations from a re-analysis of the deposited data

How the results depend on the processing

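Of 48 alternatives, 18 left a value within its own counting interval, or a count within 1.5 times, and 30 moved it. None has a test, and the cause of each shift was not tested unless it lies in the construction. The number of TSS gaps was 2779 at a limit of 1000 bp, 1774 with 1 TSS per gene and 2301 with protein-coding transcripts, against 1524 at 300 bp, 958 in the second control library, 784 where bases covered in either control library were joined, and 1195 with a −log10 p of 5 or more. The share with LSD1 was 40.1% with 1 TSS per gene and also 40.1% in the second LSD1 library, 29.8% at 50% cover, 19.1% for the whole gap, 32.5% at a TSS base and 9.56% with a −log10 p of 5 or more in the LSD1 list. The share filled was 35.3% at 300 bp, 25.5% at 1000 bp, 23.5% with 1 TSS per gene, 63.1% in the second LSD1-LKO library, 22.5% with a −log10 p of 5 or more in the LSD1-LKO list and 40.6% at 50% cover. The share kept was 11.9% in the second LSD1-LKO library and 10.5% at that −log10 p, and 11.9% and 38.2% at tolerances of 50 and 200 bp. The share widened was 24.0% at 300 bp, 3.0% in the second LSD1-LKO library, 8.52% at that −log10 p, and 27.7% and 13.8% at those tolerances. A flank was not listed in 14.8% at 300 bp, 11.4% in the second LSD1-LKO library and 54.8% at that −log10 p. Gaps of the LSD1-LKO list were filled in control in 55.3% at 300 bp and 70.1% in the second control library. The use of protein-coding transcripts alone for the shares was chosen after seeing the data and moved none of them out of its interval. With the second-listed libraries in place of the first, the number of TSS gaps was 958 against 2501 and the share of each class changed by more than its counting interval, so the choice of library decides these values, whereas the share of TSS gaps with LSD1 was 38.0% for gaps of the second control library. No paired analysis was possible because the columns carry no replicate numbers, and the fit with a replicate block was not run.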
